A study of Sesamum indicum with 6 samples.

Results

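The zinc-finger homeodomain (ZHD) and mini zinc finger (MIF) genes of sesame (Sesamum indicum) were examined in young leaves of seedlings that carried either of 2 alleles on linkage group 8. The members were taken from the product names in the authors' deposited table, as every gene whose name holds "zinc-finger homeodomain" or "mini zinc finger". This gave 11 of its 20661 genes, of which 10 are ZHD genes and 1 is a MIF gene. The rule uses names only, not measured levels, but the family was chosen with earlier results of these data known. Each gene is called here by its product name (ZHD6 for zinc-finger homeodomain protein 6), which does not by itself make it the counterpart of the Arabidopsis gene of that number.

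RNA was taken from leaves of 17-day-old plants, kept at 28 °C in the 12 h light period and at 22 °C in the 12 h dark period. The plants were recombinant inbred lines, near-homozygous mosaics of the parents of a cross. One group, SiCD_B, was homozygous for the allele with mutant kan1, and the other, SiCD_A, for the allele with wild-type KAN1. Each group held 19 plants and was measured as 3 RNA pools of 9 randomly drawn plants. Of the 27 places in a group's pools at least 8 repeat a plant already used, so the pools overlap. The p-values, SEs and intervals measure the spread between overlapping pools. That spread may be smaller than between pools of separate plants, so they may be too optimistic for the difference between the alleles.

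ZHD proteins are plant transcription factors with a zinc finger region, through which they pair with each other, and a homeodomain, which binds DNA. MIF proteins keep the zinc finger region but lack the homeodomain, and in Arabidopsis they pair with ZHD proteins and keep them from binding DNA. In Arabidopsis many ZHD genes are active in floral tissue, excess ZHD5 gives larger leaves and excess MIF1 gives dwarf plants. In rice, excess of the ZHD gene OsZHD1 makes leaves curl towards their lower face. KANADI proteins such as KAN1 specify that lower (abaxial) face.

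Total counts were 74331695 to 82165322 in SiCD_B pools and 56123250 to 74705569 in SiCD_A pools. The KAN1 transcript (LOC105167765) was at 53.8, 52.9 and 56.5 counts scaled to a library of 1000000 (CPM) in SiCD_B pools and at 22.2, 20.7 and 25.2 CPM in SiCD_A pools, which does not check the labels, since the lesion in kan1 is not given in the sources used here. Markers of green leaf cells, Rubisco small chain and chlorophyll a-b binding protein genes, summed to 21944 to 25833 CPM in SiCD_B and 21764 to 32804 CPM in SiCD_A. Seed genes summed to 3.52 to 5.25 CPM in SiCD_B and 3.48 to 4.81 CPM in SiCD_A, and root genes to 1.03 to 1.19 CPM in SiCD_B and 0.89 to 1.01 CPM in SiCD_A. Markers of leaf were thus abundant in every pool, and those of seed and root low.

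The family as a group was more abundant in leaves with the kan1 allele. Of its 11 members, 8 rose in SiCD_B (72.7%) and 0 fell, while 16.5% of all 21009 tested genes rose and 14.1% fell. At least 1.5-fold higher were 5 members (45.5%), against 4.24% of all tested genes: ZHD6, ZHD5, ZHD2-like, ZHD5-like and ZHD1-like. A smaller rise was seen in ZHD10, ZHD9-like and ZHD4. ZHD9, ZHD3-like and MIF2 did not pass the test. The median log2 fold change of the members was 0.38, beside 0.01 over all tested genes.

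The test was edgeR's quasi-likelihood test on the counts of all 6 pools, with the Benjamini-Hochberg adjusted p taken over the 21009 genes and a limit of 0.05. All 11 members passed the filter on low counts. Besides the 0 members lower in this test, 0 were lower at an unadjusted p under 0.05, 0 with DESeq2 and 0 with limma-voom. SiCD_B and SiCD_A pools did not overlap, with SiCD_B higher, for 9 members (81.8%), against 25.8% of all tested genes. Counts of calls depend on the pools. With 1 pool left out, 6 or 7 members were higher, the lower number being reached when pool 2 or 3 of SiCD_B or pool 1 of SiCD_A was dropped. Over all tested genes, 30.6% were called in either direction with all 6 pools. That share was 18.5%, 21.3% and 21.4% without SiCD_B pool 2, SiCD_B pool 3 and SiCD_A pool 1.

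**Figure D1:**
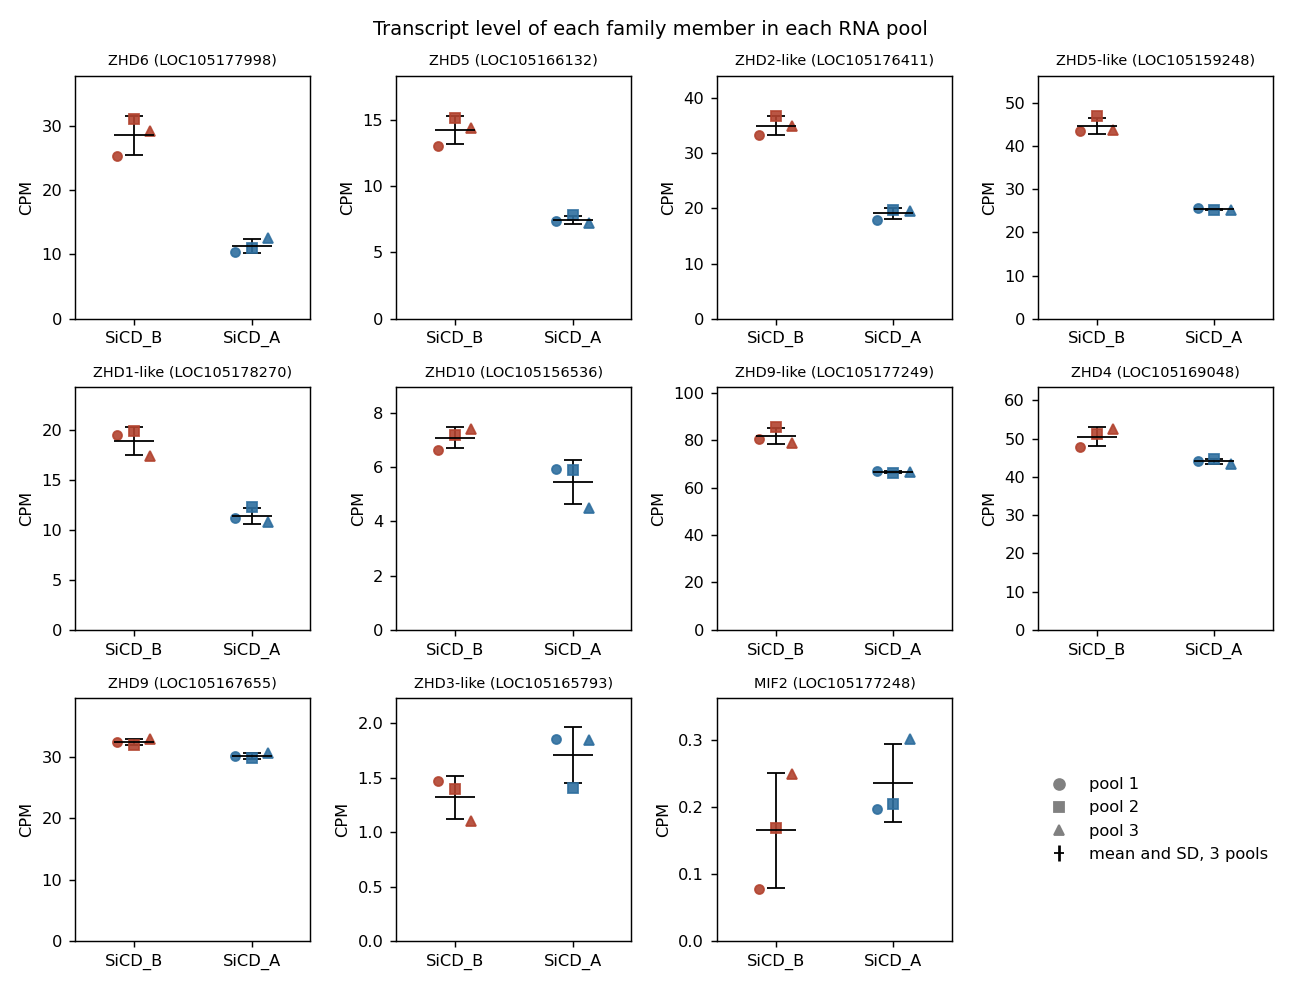
Transcript level (CPM, TMM-scaled, each panel from 0 on its own scale) of the 11 members in the 3 SiCD_B pools (left) and the 3 SiCD_A pools (right). Points are pools, and bars are the mean and SD; the groups stand clear of each other for the first 5 members, lie close together for ZHD4 and ZHD9, and overlap for ZHD3-like and MIF2.

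ZHD6 (LOC105177998, linkage group 15, coding segment 5748664 to 5749725, plus strand) changed the most. It had 1959, 2602 and 2226 counts in SiCD_B pools, or 25.3, 31.1 and 29.2 CPM, against 736, 801 and 708 counts in SiCD_A pools, or 10.4, 11 and 12.6 CPM. The lowest SiCD_B pool lay 2.01-fold above the highest SiCD_A pool. The mean was 28.5 ± 2.98 CPM in SiCD_B and 11.3 ± 1.14 CPM in SiCD_A (SD, n = 3 pools each). ZHD6 was thus 2.53-fold higher (95% interval 2.17 to 2.95), which is 1.34 on the log2 scale (SE 0.10, edgeR adjusted p = 0.0001). By the size of its increase it stood in place 163 among the 21009 tested genes.

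The 2 genes named for ZHD5 rose by similar amounts, although they lie on different linkage groups. In Arabidopsis ZHD5 promotes leaf growth and is a partner of MIF1. ZHD5 itself (LOC105166132, linkage group 7, 3734784 to 3735551, minus strand) had 13.0, 15.1 and 14.4 CPM in SiCD_B pools and 7.38, 7.78 and 7.21 CPM in SiCD_A pools. Its log2 fold change was 0.93 (SE 0.08, edgeR adjusted p = 0.000185), and every SiCD_B pool was above every SiCD_A pool.

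ZHD5-like (LOC105159248, linkage group 3, 22567248 to 22568021, plus strand) had 43.4, 46.9 and 43.7 CPM in SiCD_B pools and 25.6, 25.2 and 25.2 CPM in SiCD_A pools. The mean was 44.7 ± 1.91 CPM in SiCD_B and 25.3 ± 0.211 CPM in SiCD_A (SD, n = 3 pools each), and the SiCD_A pools were the most even of the family. The log2 fold change was 0.82 (SE 0.05, edgeR adjusted p = 3.95e-05), the smallest p among the members and place 20 among all tested genes by p. Within a pool, ZHD5-like had 3.34, 3.11 and 3.03 reads per ZHD5 read in SiCD_B and 3.46, 3.24 and 3.5 in SiCD_A. These ratios overlap between the groups, with a mean log2 difference of -0.11 (exact permutation test, two-sided p = 0.20, where 0.10 is the smallest that 3 against 3 pools allow).

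ZHD2-like and ZHD1-like rose as well. ZHD1 of Arabidopsis binds the promoter of the drought gene ERD1 together with NAC factors. ZHD2-like (LOC105176411, linkage group 13, 4132567 to 4132915, minus strand) had 33.3, 36.7 and 35.0 CPM in SiCD_B pools and 17.9, 19.7 and 19.5 CPM in SiCD_A pools, a log2 fold change of 0.88 (SE 0.06, edgeR adjusted p = 7.68e-05). ZHD1-like (LOC105178270, linkage group 15, 8805164 to 8805811, minus strand) had 19.5, 19.9 and 17.4 CPM in SiCD_B pools and 11.2, 12.3 and 10.8 CPM in SiCD_A pools, a log2 fold change of 0.73 (SE 0.08, edgeR adjusted p = 0.000401). The groups did not overlap for either gene.

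The next 3 members rose by less than 1.5-fold. ZHD9-like (LOC105177249, linkage group 15, 938849 to 939826, minus strand) had 80.7, 85.4 and 78.9 CPM in SiCD_B pools and 67.2, 66.0 and 66.6 CPM in SiCD_A pools. Its log2 fold change was 0.29 (SE 0.04, edgeR adjusted p = 0.00145). The change is small beside that of ZHD6, but the SiCD_A pools differed little, with an SD of 0.605 CPM.

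ZHD4 (LOC105169048, linkage group 8, 16928090 to 16928965, plus strand) had 47.8, 51.1 and 52.6 CPM in SiCD_B pools and 44.2, 44.7 and 43.4 CPM in SiCD_A pools. Its log2 fold change was 0.20 (SE 0.05, edgeR adjusted p = 0.0146), which no longer passed when SiCD_A pool 1 (adjusted p = 0.0506), SiCD_B pool 2 (0.0549) or SiCD_B pool 3 (0.0583) was left out. ZHD10 (LOC105156536, linkage group 2, 17195758 to 17196645, plus strand) had 6.65, 7.19 and 7.39 CPM in SiCD_B pools and 5.93, 5.89 and 4.51 CPM in SiCD_A pools. SiCD_A pool 3, the shallowest library, was the lowest.

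The log2 fold change of ZHD10 was 0.38 (SE 0.12, edgeR adjusted p = 0.0449), just inside the limit. Its call was lost without any 1 of the 6 pools (adjusted p = 0.0551 to 0.128), and without SiCD_A pool 3 the log2 fold change was 0.25. It was also lost with DESeq2 size factors (0.0504) and upper-quartile factors (0.0526). The calls of ZHD10 and ZHD4 are therefore the least firm of the 8.

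**Figure D2:**
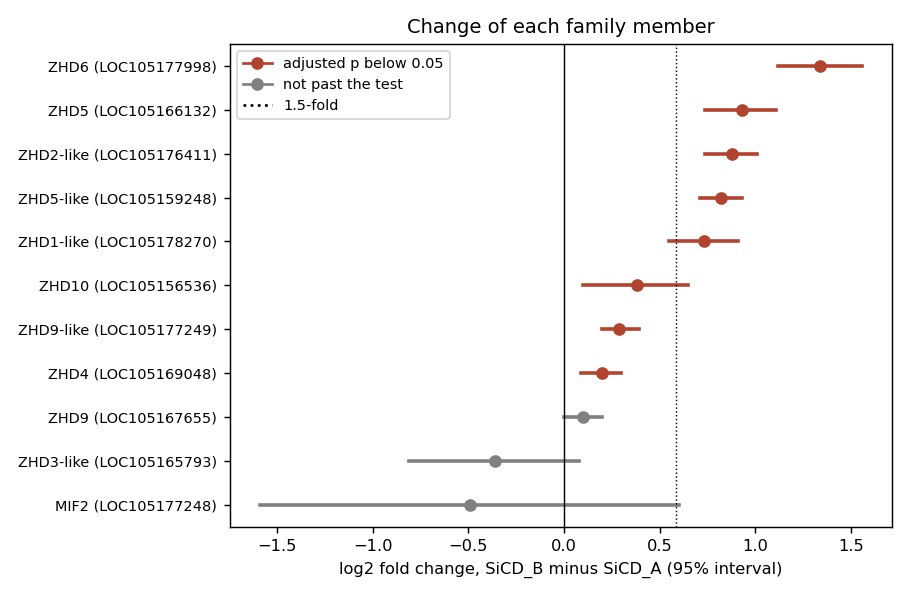
Log2 fold change (SiCD_B minus SiCD_A) of each member with its 95% interval from edgeR's quasi-likelihood fit. Red marks an adjusted p below 0.05 and grey the rest; the intervals of ZHD6, ZHD5, ZHD2-like and ZHD5-like lie wholly beyond the dotted 1.5-fold line, and that of MIF2 runs from -1.59 to 0.60.

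ZHD9 (LOC105167655, linkage group 8, 3528194 to 3529231, minus strand) is the member nearest to KAN1, 1.53 Mb away by the deposited positions, while ZHD4 lies 11.9 Mb from it on the same linkage group. ZHD9 had 32.4, 32.0 and 33 CPM in SiCD_B pools and 30.2, 29.8 and 30.7 CPM in SiCD_A pools. The groups did not overlap, but the gap was small. The log2 fold change was 0.10 (SE 0.04, edgeR adjusted p = 0.111), with a 95% interval for the fold of 1.0 to 1.15. With library size as the only scaling it passed (log2 fold change 0.15, adjusted p = 0.0484).

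ZHD9 and ZHD9-like were also compared within each pool, which needs no scaling: ZHD9-like had 2.49, 2.67 and 2.39 reads per ZHD9 read in SiCD_B and 2.22, 2.22 and 2.17 in SiCD_A. All 3 SiCD_B ratios were above all 3 SiCD_A ratios, with a mean log2 difference of 0.19 (exact permutation test, two-sided p = 0.10, the smallest possible). Of 3 ratios computed within pools, that of ZHD6 to ZHD9 is left out, since the pair had been chosen for its difference. Reads of like genes cannot be told apart where their sequences are the same, and how the counting treated such reads is not given in the sources used here.

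ZHD3-like and MIF2 had lower means in SiCD_B but did not pass the test. ZHD3-like (LOC105165793, linkage group 6, 25014074 to 25014856, minus strand) had 1.47, 1.4 and 1.1 CPM in SiCD_B pools and 1.86, 1.41 and 1.85 CPM in SiCD_A pools, so that SiCD_A pool 2 fell among the SiCD_B pools. Its log2 fold change was -0.36 (SE 0.20, edgeR adjusted p = 0.194). The 95% interval of the fold was 0.572 to 1.06. For ZHD4, the smallest change among the 8 members that passed, the fold was 1.15 (95% interval 1.06 to 1.23). The upper end for ZHD3-like and the lower end for ZHD4 are thus about equal.

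MIF2 (LOC105177248, linkage group 15, 931338 to 931619, plus strand) was close to silent. In Arabidopsis MIF2 helps to switch off WUSCHEL and so to end the growth of the floral meristem. The gene had 6, 14 and 19 counts in SiCD_B pools and 14, 15 and 17 in SiCD_A pools, or 39 counts (95% exact Poisson interval 27.7 to 53.3) in SiCD_B and 46 (33.7 to 61.4) in SiCD_A. These intervals cover counting error only. Its level was 0.165 ± 0.0858 CPM in SiCD_B and 0.235 ± 0.0582 CPM in SiCD_A (SD, n = 3 each), where a floor of 3 counts lies at 0.0365 to 0.0535 CPM, depending on the pool. The log2 fold change was -0.49 (SE 0.48, edgeR adjusted p = 0.471), and its interval for the fold, 0.333 to 1.52, leaves room for a change in either direction. A difference was not detectable with so few counts and this spread between pools.

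MIF2 and ZHD9-like are close neighbours. Their coding segments lie 7229 bases apart on opposite strands and point towards each other, and the RefSeq table of S_indicum_v1.0 lists only a tRNA gene between them. ZHD9-like was at 78.9 to 85.4 CPM in SiCD_B and 66.0 to 67.2 CPM in SiCD_A, while MIF2 was at 0.0775 to 0.249 CPM in SiCD_B and 0.197 to 0.302 CPM in SiCD_A. Linkage group 15 holds 4 of the 11 members, which otherwise lie on 6 further linkage groups. The 4 on linkage group 15 include the gene with the largest increase, ZHD6, and the lowest in counts, MIF2.

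The make-up of the family's reads shifted with the members that rose most. All 11 members together had 303.5, 326.9 and 312.8 CPM in SiCD_B pools and 222.1 to 223.9 CPM in SiCD_A pools, 1.41-fold more in SiCD_B. ZHD6 took 9.06 ± 0.639% of the family's reads in SiCD_B and 5.07 ± 0.513% in SiCD_A (SD, n = 3 pools each). ZHD5-like took 14.2 ± 0.2% in SiCD_B and 11.4 ± 0.136% in SiCD_A. In exchange, the share of ZHD9-like was 26.0 ± 0.695% in SiCD_B and 29.9 ± 0.398% in SiCD_A, although its own CPM was higher in SiCD_B, and that of ZHD9 was 10.3 ± 0.477% in SiCD_B and 13.6 ± 0.248% in SiCD_A. Such shares follow transcript length as well as number and therefore do not rank the genes. In RNA of whole leaves, more cells of a type and more RNA per cell cannot be told apart.

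**Figure D3:**
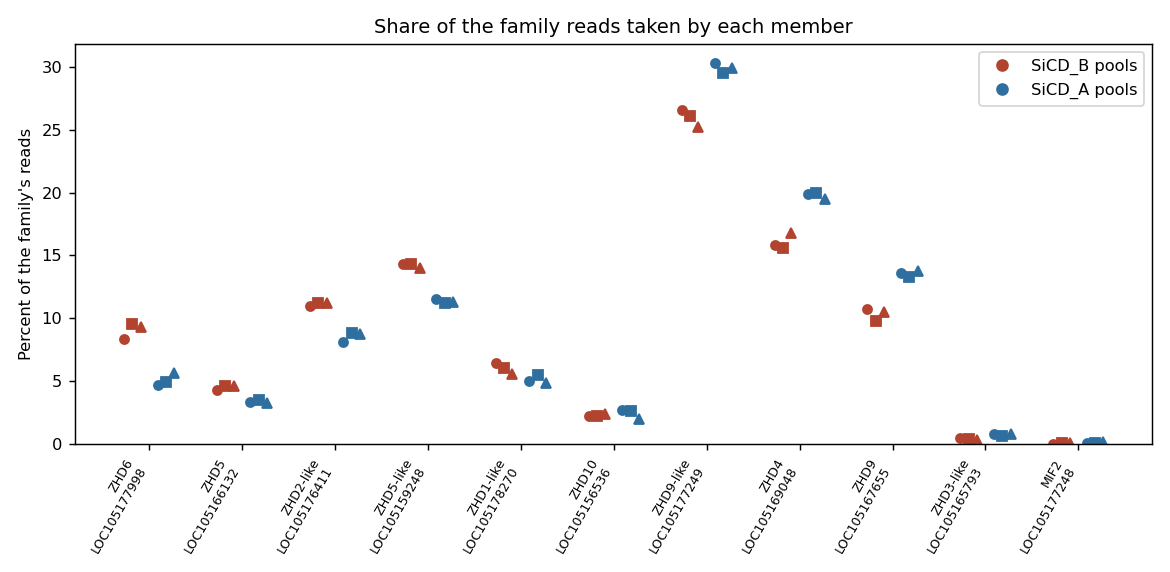
Percent of the reads of all 11 members that fell to each member, in the SiCD_B pools (red) and the SiCD_A pools (blue), with circles, squares and triangles for pools 1, 2 and 3. The shares of ZHD6, ZHD5, ZHD2-like, ZHD5-like and, by a small gap, ZHD1-like were higher in every SiCD_B pool. Those of ZHD9-like, ZHD4, ZHD9, ZHD3-like and MIF2 (few reads) were lower, and those of ZHD10 overlapped.

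The 11 members were set beside 4 lists of genes found by words in the product names. Leaf polarity genes, which set the upper and lower faces, rose for 22 (81.5%) and fell for 0 of 27, with a median log2 fold change of 0.46. KAN1, whose alleles define the groups, is one of the 22. With 1 pool left out, 17 to 21 polarity genes rose. The member of smallest p, AS1-like (LOC105174712), of a family that represses meristem genes in the leaf, had 48.7 ± 2.18 CPM in SiCD_B and 22.9 ± 1.01 CPM in SiCD_A (log2 fold change 1.09, SE 0.05). The other two by p were KAN1 (1.26, SE 0.07) and YABBY 1-like (LOC105173319; 0.95, SE 0.06), all with an edgeR adjusted p of at most 6.64e-05. The largest change in the list was that of KAN1-like (LOC105178203; 4.59, SE 0.36), named after its values were seen, with 2.32 ± 0.236 CPM in SiCD_B and 0.0951 ± 0.0621 CPM in SiCD_A (SD, n = 3 each).

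Other homeobox genes, 9 of which are also in the polarity list, were a more mixed group. Of 93 tested, 37 rose (39.8%) and 6 fell (6.45%), and the median was 0.15. Those of smallest p were WUSCHEL-related homeobox 1 (LOC105166551; 1.60, SE 0.08), a blade growth gene, and the upper-face genes REVOLUTA (LOC105170294; 0.80, SE 0.06) and ATHB-14 (LOC105167264; 0.99, SE 0.08). Among them HD-ZIP genes rose for 22 and fell for 0 of 50 (median 0.19), and WUSCHEL-related genes rose for 4 and fell for 1 of 7 (0.75). BEL1-type genes rose for 4 and fell for 3 of 13 (-0.10), and knotted-type genes rose for 2 and fell for 0 of 5 (1.01). The number of other homeobox genes that fell was 11 without SiCD_B pool 1.

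The next list held genes whose Arabidopsis counterparts act with ZHD or MIF proteins. Of 14 tested, 4 rose (28.6%, beside 16.5% of all tested genes) and 0 fell, with a median of 0.13, and 1 was lower with DESeq2. They included TOPLESS-related 4 (LOC105158374), a corepressor gene, which rose by 0.53 (SE 0.08) from 7.71 CPM in SiCD_A to 11.2 CPM in SiCD_B. More abundant corepressor genes, named after their values were seen, did not rise. TOPLESS (LOC105158348) had 276.6 ± 16.7 CPM in SiCD_B and 308.2 ± 17.1 CPM in SiCD_A (log2 fold change -0.16, SE 0.06). TOPLESS-related 3 (LOC105172405) had a log2 fold change of 0.04 (SE 0.04). KNUCKLES-like (LOC110012185), named for a zinc finger repressor that acts with MIF2 on WUSCHEL, had 1.54 ± 0.125 CPM in SiCD_B and 0.702 ± 0.0599 CPM in SiCD_A (log2 fold change 1.14, SE 0.19, edgeR adjusted p = 0.00294). A gene named ABSCISIC ACID-INSENSITIVE 5-like 2 (LOC105162726) rose by 0.27 (SE 0.05). The ClpD gene (LOC105158268), named for the protein that ERD1 encodes, had a log2 fold change of 0.06 (SE 0.05, edgeR adjusted p = 0.336). ClpD was named after its values were seen.

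Gibberellin and brassinosteroid genes, hormone pathways whose responses change in Arabidopsis plants with excess MIF1, rose for 11 and fell for 4 of 40, with a median of 0.12. Without SiCD_B pool 2 or 3, 6 and 7 rose. The members of smallest p were gibberellin-regulated protein 4-like (LOC105177251; 0.80, SE 0.08) and the brassinosteroid response factor genes BES1/BZR1 homolog 4 (LOC105165463; 0.73, SE 0.07) and homolog 2-like (LOC105176178; 0.35, SE 0.04). The largest log2 fold change in the list was negative, -1.91 for LOC105167292, named after its values were seen.

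**Figure D4:**
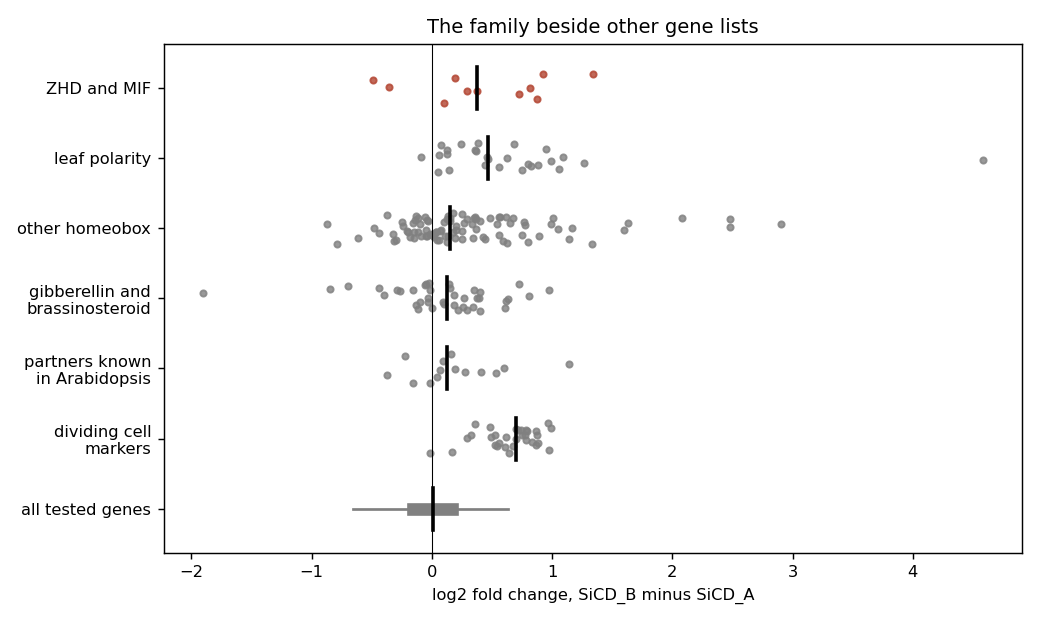
Log2 fold change (SiCD_B minus SiCD_A) of each tested gene in 6 lists, with the median as a black line; the last row shows the 5th to 95th percentile (thin) and the quartiles (thick) of all tested genes. The medians were 0.38 for ZHD and MIF genes, 0.46 for leaf polarity, 0.15 for other homeobox genes and 0.70 for dividing cell markers.

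Markers of dividing cells moved the same way as the ZHD genes. Mitotic cyclin, histone H3.2 and histone H4 genes rose for 26 (81.2%) and fell for 0 of 32, with a median log2 fold change of 0.70. Of all tested genes 16.5% rose and 14.1% fell. The markers of dividing cells summed to 2071, 2277 and 2115 CPM in SiCD_B pools and 1397, 1428 and 1174 CPM in SiCD_A pools. None was at 0 counts in either group. Phloem markers fell for 8 (72.7%) and rose for 0 of 11. They summed to 175.1 to 206.4 CPM in SiCD_B and 227.5 to 253.8 CPM in SiCD_A. Only 4 or 5 fell when pool 2 or 3 of SiCD_B, or pool 1 or 2 of SiCD_A, was left out.

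The green leaf markers fell for 3 and rose for 1 of 20 (median -0.32), and the number that fell was 16 without SiCD_A pool 3 and 0 or 1 without any other pool. It was 11 with the pool number as a block and 6 with DESeq2's test. Floral homeotic genes rose for 3 (33.3%) and fell for 0 of 9 tested. They summed to 136.1 to 144.8 CPM in SiCD_B and 107.1 to 117.4 CPM in SiCD_A. The 3 were APETALA 2 (LOC105177600, mean 42.8 CPM in SiCD_B), APETALA 2-like (LOC105176219, 57.6 CPM) and APETALA 1 A-like (LOC105180307, 2.22 CPM). Genes of the APETALA 2 name thus made up most of the sum. DEFICIENS was at 2.43 CPM in SiCD_B and 2.98 CPM in SiCD_A, and GLOBOSA at 0.417 and 0.387 CPM. These genes were named after their values were seen. The words for shoot meristem markers met only 5 CLAVATA3/ESR-related peptide genes, of which 1 rose (0 without SiCD_A pool 2 or SiCD_B pool 3), with 5.16 to 6.29 CPM in SiCD_B and 5.24 to 6.17 CPM in SiCD_A. Of 4 tested seed genes 1 rose and 0 fell, a call lost when pool 1 or 2 of either group was left out or with the CPM filter, and of 4 tested root genes 0 rose and 0 fell. The part of these cell types in the rise of the ZHD genes was not tested.

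In the authors' deposited table the same 8 members had an adjusted p under 0.05, all higher in SiCD_B. Its log2 fold changes were 1.33 for ZHD6, 0.91 for ZHD5, 0.87 for ZHD2-like, 0.81 for ZHD5-like and 0.72 for ZHD1-like. ZHD6, ZHD2-like and ZHD5-like are also in the authors' deposited table of 100 top genes.

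**Figure D5:**
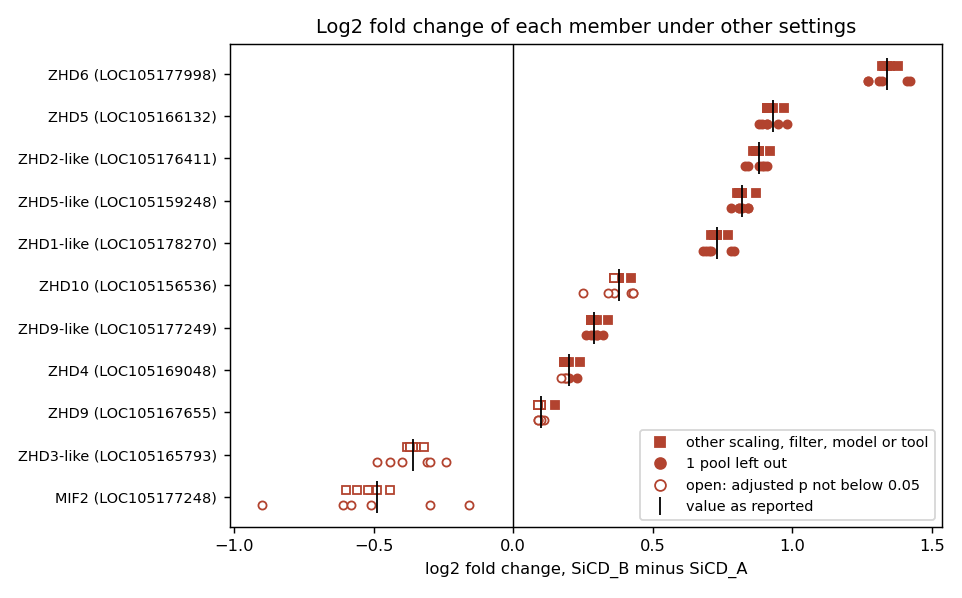
Log2 fold change (SiCD_B minus SiCD_A) of each member with 1 pool left out (circles) and with another scaling, filter, model or tool (squares); open marks have an adjusted p of at least 0.05, and the black line is the reported value. ZHD6, ZHD5, ZHD2-like, ZHD5-like, ZHD1-like and ZHD9-like stayed past the limit in all 14 settings, ZHD10 in 6 and ZHD4 in 11.

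Across these 14 settings the log2 fold change of ZHD6 was 1.27 to 1.42, that of ZHD5 0.88 to 0.98, that of ZHD2-like 0.83 to 0.92 and that of ZHD5-like 0.78 to 0.87. ZHD1-like ranged over 0.68 to 0.79 and ZHD9-like over 0.26 to 0.34. None of the 11 members changed direction in any setting that gave it a value.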

How the data were processed

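Deposited counts are whole reads per gene with no normalization, for 25762 genes and 6 pools. The authors' normalized signal equals the counts divided by 1 factor per pool, tested on the file. The authors' table of 20661 genes gives log2 fold changes, a test score, p-values and adjusted p-values, product names and 1 coding segment per gene, whose build is not named. Per the submitters' processing notes, the tools were STAR, HTSeq, SAMtools, DESeq2, Trim Galore and FastQC (0.11.4). The TruSeq kit does not mark strand, per the labels' protocols.

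The contrast SiCD_B minus SiCD_A was fitted to the counts of the 6 pools, with no covariate, by edgeR 4.0.16 (R 4.3.3; robust quasi-likelihood fit, TMM scaling, filterByExpr) and adjusted over 21009 genes. The SE is the size of the log2 fold change over the square root of F. CPM are counts scaled to 1000000 with TMM factors. No gene length was used, so levels are not ranked between genes. The fit was also run on simulated data. That outcome is not reported here, so the run does not vouch for calls near the limit.

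Linkage group names come from the RefSeq table of S_indicum_v1.0, in which all 11 members occur. The members and lists were chosen with earlier results of these data known. Every member is named, with up to 3 genes of smallest p from each of the 4 lists. After the values were seen, 1 gene whose name merely contains the letters of cyclin-B was removed from the dividing cell markers. Alternatives were other scalings and filters, DESeq2 1.42.0, limma-voom (limma 3.58.1), a block and leaving out each pool. No 2 pools agreed within sampling noise (chi-square over its degrees of freedom, within a group, 5.32 to 30.4). Figures were drawn with matplotlib 3.10.9.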

Additional observations from a re-analysis of the deposited data

How the results depend on the processing

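Over the 14 alternatives, 6 to 9 of the 11 members were higher and 0 lower: 7 with DESeq2 size factors or upper-quartile factors, 9 with library size alone, and 8 with limma-voom, DESeq2's test, the CPM filter or none. ZHD10 missed the limit with DESeq2 size factors (0.36) and upper-quartile factors (0.36), and its log2 fold change was 0.25 to 0.43 with 1 pool left out. ZHD4 had 0.17 to 0.23 with 1 pool left out, and ZHD9 passed with library size alone (0.15). For other homeobox genes 4 to 11 fell with 1 pool left out, and for gibberellin and brassinosteroid genes 6 to 10 rose. Of the genes known as partners in Arabidopsis, 1 fell with DESeq2's test. Fits without a pool have fewer samples, and called 18.5% to 28.3% of all tested genes in either direction, against 30.6% with all pools. The cause of these shifts was otherwise not tested.

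With the pool number as a block, 8 members were higher, while 10 other homeobox genes, 1 partner gene and 11 of 20 green leaf markers fell. Over all tested genes, 34.2% were then called in either direction, against 30.6% without the block. The labels do not say that a pool number marks a shared batch. Same-numbered pools had correlations of their deviations from the group means of 0.13, 0.06 and 0.16 over 21009 genes, and every pool correlated best with its own number, a hint from the data and not from the design. The low and uneven counts of MIF2 limit what can be said: its log2 fold change was -0.90 to -0.16 with 1 pool left out.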
